A study of Mus musculus with 6 samples.

Results

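Oxidative phosphorylation in mitochondria is carried out by complexes I to V, and the genes described here are the nuclear genes whose symbols carry the family names of those complexes. All symbols in the count tables that begin with NDUFA, NDUFB, NDUFC, NDUFS, NDUFV, UQCR, COX4 to COX8 or ATP5, together with SDHA, SDHB, SDHC and SDHD, were taken, which gave 94 of 17144 listed genes. The RNA came from 6 libraries of a cell line labelled SaOS2, a human osteosarcoma line, with 3 libraries titled C and 3 titled D. The series design speaks of these cells and of their treatment with an agent written DDTC(I), but no label ties C or D to it, so differences are written as D less C and neither group is named as treated. No dose, time or separate culture is named, and the p-values may therefore reflect technical spread among the libraries alone. In RNA from bulk cells, fewer cells of a kind and less RNA per cell cannot be told apart.

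Complexes I and II pass electrons from NADH and succinate to ubiquinone, complex III passes them on to cytochrome c, and complex IV passes them to oxygen. Complexes I, III and IV pump protons, and complex V, the ATP synthase, uses the returning protons to make ATP. Complexes I, III, IV and V combine nuclear subunits with subunits encoded by mitochondrial DNA, whereas complex II is encoded in the nucleus alone and also belongs to the tricarboxylic acid cycle. Of 13 symbols for the mitochondrially encoded subunits, 0 were listed in the count tables, so the nuclear side alone is described. Osteosarcoma cells are known to make ATP by glycolysis as well as by this route.

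Library totals ranged from 18446443 to 20602771 counts, and a floor of 3 counts was 0.146 to 0.163 CPM (counts relative to the library total), a limit that covers counting error only. Of 9 genes chosen to check the bone lineage and the line, SP7, IBSP and BGLAP, which mark osteoblasts, had at most 0.113 normalized CPM in any library. ALPL, the alkaline phosphatase for which SaOS2 cells are known, had 0.379 to 0.781 normalized CPM, so these markers go against the label, and the cells are named by their label only. RUNX2 and COL1A1, also of that lineage, were lower in D (log2 fold change −1.10 and −2.23), and SPP1 (2.79) was higher. Of 13 markers of other cell types, 8 were too low to be tested, and 2 or 3 had no count in each library. Their summed level was 534 to 555 normalized CPM in C and 534 to 585 in D, most of it from CD68, a lysosomal protein of macrophages, and 56.5 to 65.5 in C and 75.4 to 101 in D without CD68. KRT18, of epithelial cells, was higher in D (0.90), and CDH5 (−2.93) and PECAM1 (−0.44), of endothelium, were lower, the last not without C replicate 1 (−0.46), C replicate 2 (−0.28), D replicate 1 (−0.38) or D replicate 2 (−0.40). The part of these genes in the results was not tested. Within D, log2 CPM followed gene length differently in each library, with slopes per doubling of length of 0.0126, 0.1704 and −0.183 in D replicates 1, 2 and 3, after subtraction of the D mean. The members are short genes, with a median length of 1236 bp against 4081.5 bp for all genes tested, and 61.4% of them were at most 1500 bp long, against 9.05% of all genes tested.

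Of the 94 members, 88 passed the filter on low counts and 6 did not. In D, 15 were higher, 1, SDHA, was lower, and 72 were not called at an adjusted p under 0.05 (edgeR quasi-likelihood test, Benjamini-Hochberg adjustment over all genes). At an unadjusted p under 0.05, 23 were higher and 3 lower (29.4% and 30.4% of all genes), and DESeq2 called 23 higher and 1 lower (28.4% and 26.8%). The members called higher were 17% of those tested, where 26.8% of all 12682 genes tested were called higher, and the member called lower was 1.14%, where 27.7% of all genes were. The median log2 fold change of the members was 0.23, against −0.02 for all genes tested, and 72 of 88 members had a value above 0. The median of the members was 0.39 without D replicate 2 and 0.07 without D replicate 3. In genes of at most 1500 bp, 8 of 54 members were called higher and 0 lower by edgeR, whereas 34.8% of all genes of that length were called higher and 12.8% lower, and the medians were 0.27 for the members and 0.25 for all genes of that length. In genes over 1500 and up to 3000 bp, 5 of 21 members were higher and 0 lower (33.2% and 24.1% of all genes), with medians of 0.22 and 0.10. In genes over 3000 and up to 6000 bp, 1 of 7 was higher and 1 lower (27.9% and 30.8% of all genes), and over 6000 bp 1 of 6 was higher and 0 lower (17% and 31.3%). In these longer classes the members had medians of 0.18 and 0.20 and all genes −0.05 and −0.20. The groups did not overlap for 19 members with D above C and for 2, SDHA and ATP5F1A, with D below C, and the same held for 30.6% and 32.1% of all genes tested.

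**Figure D1:**
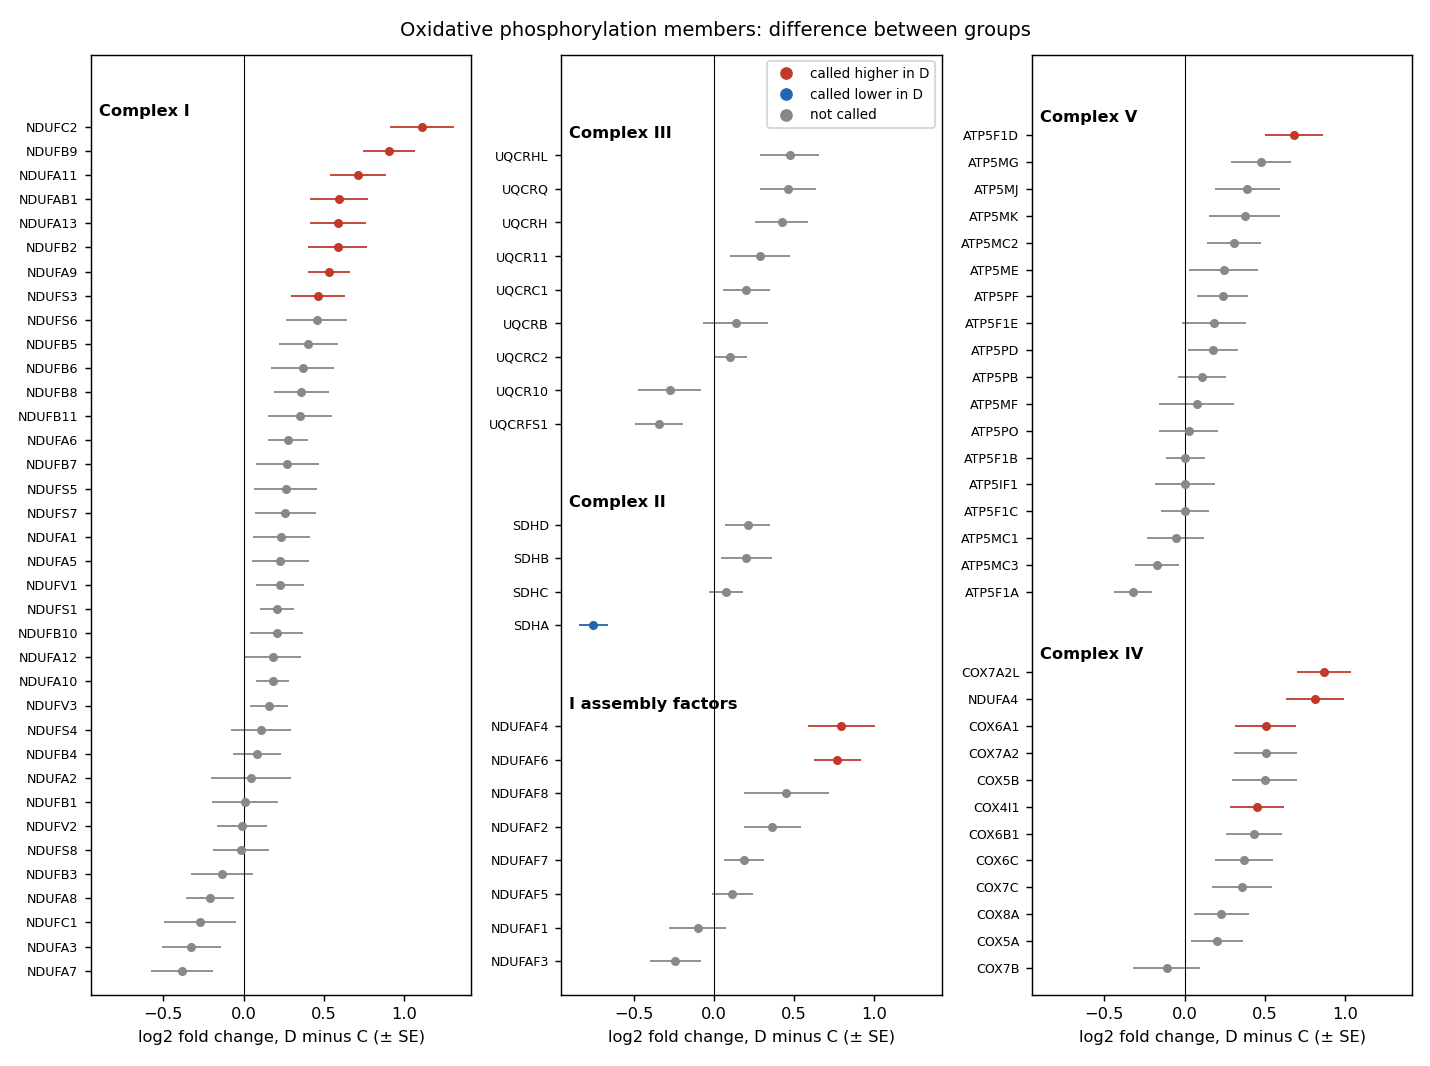
Log2 fold change of D minus C with its standard error (horizontal axis) for tested members reported by name. They are ordered by value within complexes I to V and the complex I assembly factors. Red is called higher, blue called lower, grey not called. SDHA at −0.75 is the single member called lower, and NDUFC2 at 1.11 has the highest value.

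The members moved together from library to library, with the D libraries further apart than the C libraries. D replicate 3 was the highest of the D libraries for 86 of 88 members and D replicate 2 the lowest for 86, whereas over all genes tested these libraries were highest for 42.4% and lowest for 39.7%. This comparison was not matched for gene length, and the members have a shorter median length than all genes tested. Relative to the C mean, the mean log2 CPM of the members was 0.17 in D replicate 1, −0.08 in D replicate 2 and 0.55 in D replicate 3. In C, replicate 3 was the lowest library for 83 of 88 members and stood at −0.15, with C replicates 1 and 2 at 0.04 and 0.11. D replicate 2 therefore lay inside the range of C, and D replicates 1 and 3 lay above every C library. The median coefficient of variation of the members was 9.36% in C and 24.2% in D, against 7.56% and 15.3% for all genes tested.

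The count of calls moved with the libraries in the fit. Without D replicate 2, 49 members were called higher and 1 lower (30.4% and 30.3% of all genes), with all 15 original rises kept. Without D replicate 3, 13 were higher and 12 lower (30.1% and 29.9%), with 12 of the 15 kept. Without C replicate 1, 8 were higher and 1 lower (20.4% and 21.6%), and without C replicate 3 the counts were also 8 and 1 (21.4% and 22.3%).

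The scaling and the treatment of length moved the balance of higher and lower calls. Scaling by library size alone, which moved the median of all genes from −0.02 to −0.17, gave 10 higher and 5 lower members (20.4% and 35.1% of all genes), and the members stood above the median of all genes by 0.24 there and by 0.25 with TMM scaling. When the dependence on gene length was taken out of each library, 19 members were higher and 17 lower (32.9% and 30.4%), with a median of 0.07. The mean log2 CPM of the members relative to C was then 0.04, −0.04 and 0.15 in D replicates 1, 2 and 3. Of the D libraries, D replicate 3 was then highest for 58 of 88 members and D replicate 2 lowest for 54. Of the C libraries, C replicate 3 was lowest for 58. On log2(FPKM + 1), where FPKM is the count divided by gene length and library total, limma gave 10 higher and 8 lower (20.1% and 36.1%), on log2(FPKM + 0.1) the same counts (20.1% and 35.8%), and on log2(FPKM + 1) without a filter on low values 9 and 6 (15.7% and 25.9%). In edgeR without a filter on low counts 17 were higher and 3 lower (20.7% and 21.2%), and at an adjusted p under 0.01 7 were higher and 1 lower (18.9% and 19.5%). Of the 16 called members, 8 were called in each of 17 alternative fits: SDHA lower, and NDUFA9, NDUFA11, NDUFB9, NDUFC2, NDUFAF6, NDUFA4 and COX7A2L higher.

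**Figure D2:**
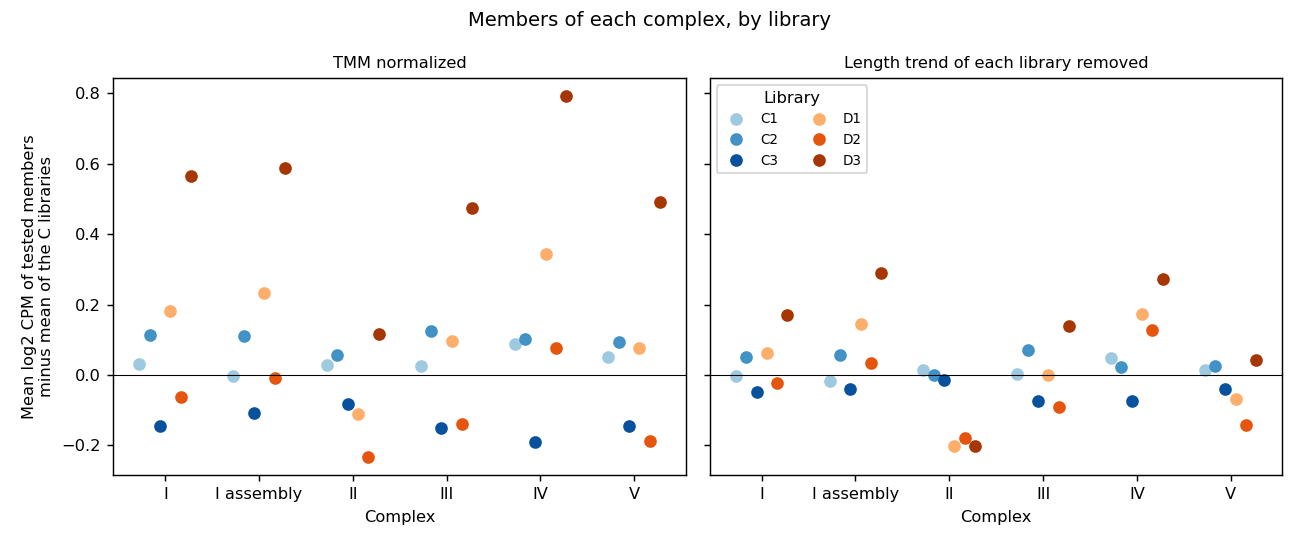
Mean log2 CPM of the tested members of each complex in each library, minus the mean of the C libraries (vertical axis), with TMM scaling on the left and after removal of length trends on the right; each point is a library. On the left D replicate 3 is the highest point in every complex, and on the right the 3 D libraries of complex II fall between −0.20 and −0.18, below all C libraries. The complex II points are means of 4 genes that include SDHA. With length trends removed, the log2 fold change of SDHA was −0.70 and the median of the 4 genes −0.06.

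**Figure D3:**
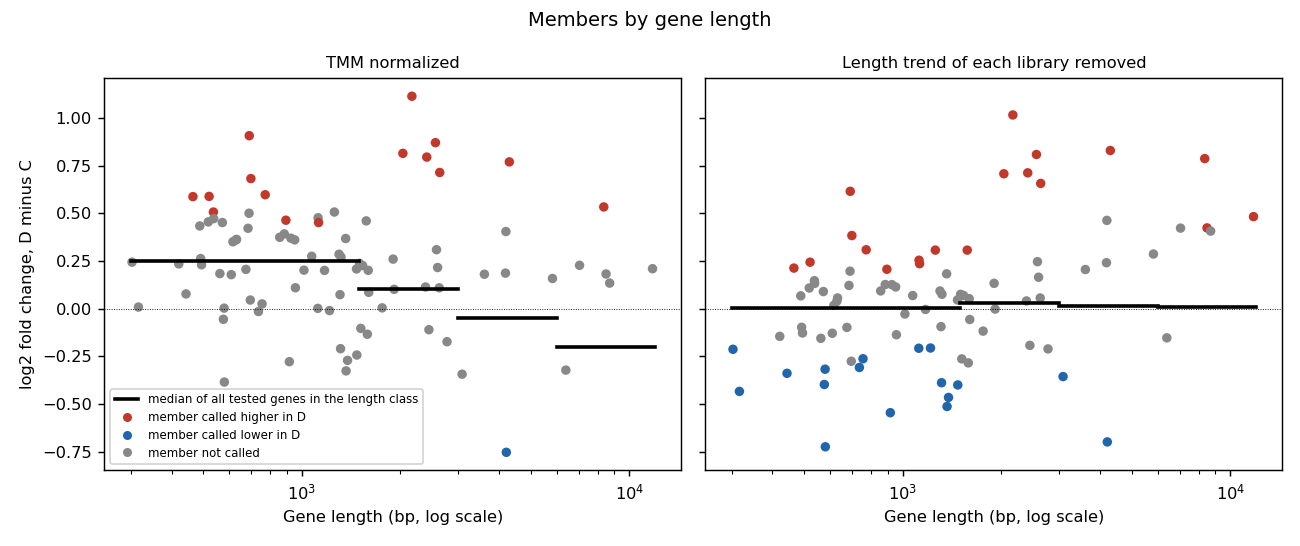
Log2 fold change of each tested member against gene length on a log scale, with TMM scaling on the left and with length trends removed on the right; black bars are the medians of all tested genes in 4 length classes. The bars run from 0.25 in genes up to 1500 bp to −0.20 in genes over 6000 bp on the left and lie between 0.00 and 0.03 on the right, where 19 members are called higher and 17 lower.

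In complex II, the succinate dehydrogenase, the flavoprotein subunit fell and the other subunits did not pass the test. SDHA, which carries the FAD group and oxidizes succinate, had 350, 344 and 329 normalized CPM in the C libraries and 207, 197 and 204 in the D libraries. All D libraries lay below all C libraries, and the spread within D was small, unlike that of most members. The length of SDHA was 4212 bp, near the median of 4081.5 bp of all genes tested, whereas most members are shorter. Whether length bears on this spread was not tested. The log2 fold change of SDHA was −0.75 ± 0.09 (SE), with an adjusted p of 0.000232 (edgeR), and it ranged from −0.78 to −0.70 as each library was left out. It was −0.70 with length trends removed. SDHA has closely similar pseudogene copies, and how the authors' counting divided reads among them is not given in the sources used here.

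SDHB, the iron-sulfur subunit that passes electrons on from SDHA, had 175, 189 and 159 normalized CPM in C and 193, 163 and 247 in D, with overlapping groups and a log2 fold change of 0.20 ± 0.16 (adjusted p = 0.301, edgeR). SDHC and SDHD, which anchor the enzyme in the membrane and help bind ubiquinone, had log2 fold changes of 0.07 ± 0.11 and 0.21 ± 0.14, and neither was called. With length trends removed, SDHB stood at −0.03, SDHC at −0.09 and SDHD at 0.05. The ratio of SDHA to SDHB, both in FPKM, was 0.481, 0.437 and 0.499 in C and 0.258, 0.291 and 0.199 in D. The mean log2 ratio of D less that of C was −0.94, and no D library reached the lowest C library. SDHA itself sets the direction of this ratio, so it is given as a description with no test. The lengths of SDHA and SDHB were 4212 and 1015 bp, and length trends were not removed from the ratio.

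The dedicated assembly factors of complex II, which lie outside the name rule, also differed between the groups. Of these, SDHAF1 was named by the rule and SDHAF2, SDHAF3 and SDHAF4 after their values were seen. SDHAF1, which helps insert the iron-sulfur clusters of SDHB, had 15.9, 16.2 and 14.2 normalized CPM in C and 6.6, 5.57 and 6.76 in D (log2 fold change −1.29 ± 0.13, adjusted p = 0.000102, edgeR). SDHAF4, which binds SDHA that carries FAD, had 11, 9.8 and 7.96 in C and 4.46, 3.7 and 4.54 in D (−1.18 ± 0.17, adjusted p = 0.000538, edgeR). SDHAF3, which acts with SDHAF1 on SDHB, fell from a mean of 11.1 ± 0.811 to 6.5 ± 1.46 normalized CPM (SD, n = 3; −0.78 ± 0.17). SDHAF2, which attaches FAD to SDHA, went the other way, from 40.5, 41.8 and 41 to 68.7, 62.3 and 87.1 normalized CPM (0.82 ± 0.14, adjusted p = 0.00119, edgeR). For each of these 4 genes the groups did not overlap, and each was called in all 17 alternative fits. Of all genes tested, 30.6% had D above C without overlap and 32.1% had D below C, and edgeR called 54.4% in either direction.

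**Figure D4:**
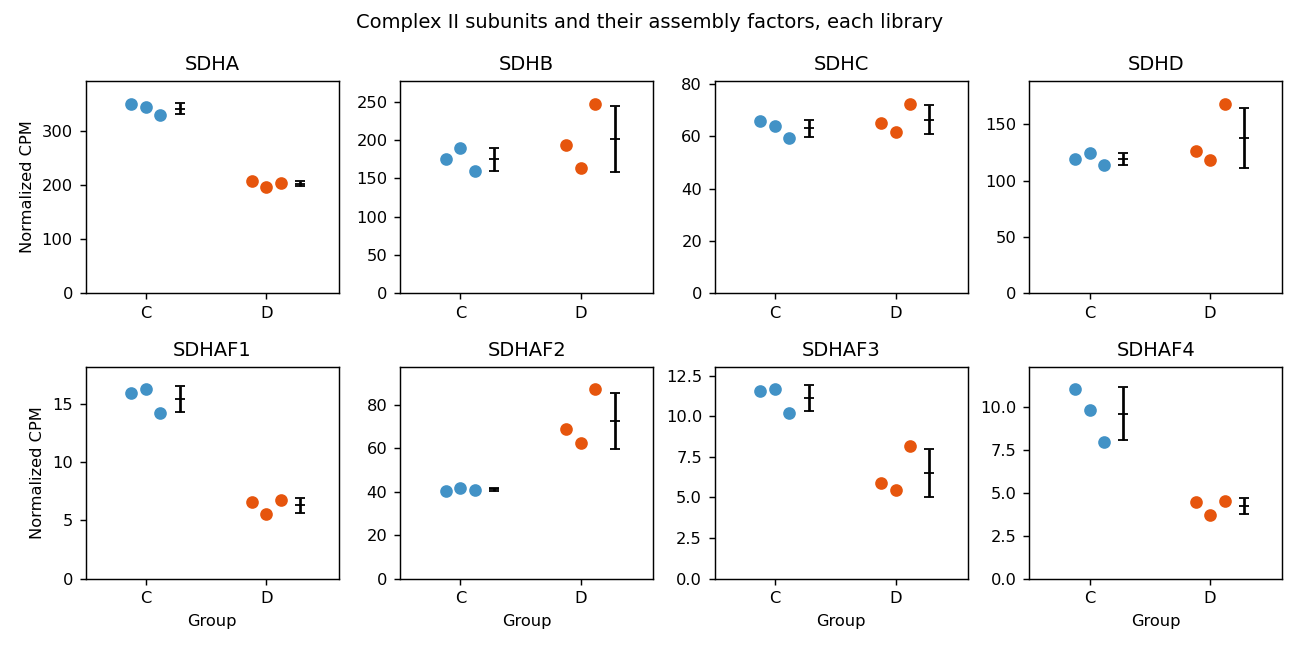
Normalized CPM (vertical axis, from 0) of the 4 complex II subunit genes and 4 complex II assembly factor genes in each library of groups C and D; points are libraries and black bars are the mean ± SD of 3. SDHA, SDHAF1, SDHAF3 and SDHAF4 are lower in all D libraries, SDHAF2 is higher, and SDHB, SDHC and SDHD overlap.

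Complex I, the NADH dehydrogenase, had 37 subunit genes under the name rule, all of them tested. Of these 8 were higher in D and 0 lower (edgeR; 9 higher and 0 lower at an unadjusted p under 0.05, and 9 and 0 in DESeq2), a share of 21.6% against 26.8% of all genes. The median log2 fold change was 0.23, with a range from −0.38 to 1.11. The fit without D replicate 2 had 20 higher (30.4% of all genes), and that without D replicate 3 had 8 higher and 5 lower (30.1% and 29.9%). Those without C replicate 1 or C replicate 3 had 4 higher each (20.4% and 21.4%), and that without D replicate 1 had 5 (22.5%). With length trends removed, 10 were higher and 7 lower (32.9% and 30.4%).

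The core subunits, which hold the flavin and iron-sulfur clusters, were mostly not called. NDUFV1, NDUFV2 and NDUFS1, which form the part that takes electrons from NADH, had log2 fold changes of 0.23, −0.01 and 0.21. Of the core subunits that lead to the ubiquinone site, NDUFS3 was called. It had 53.2, 57.6 and 49.1 normalized CPM in C and 70.7, 57.6 and 92.4 in D, and the groups met at the value of C replicate 2 and D replicate 2. Its log2 fold change of 0.46 ± 0.17 (adjusted p = 0.045, edgeR) was not called when C replicate 1 (0.46), C replicate 2 (0.52), C replicate 3 (0.40), D replicate 1 (0.49) or D replicate 3 (0.28) was left out.

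Among the 30 accessory subunits, which surround the core and are needed for its assembly and stability, 7 were higher (23.3%, against 26.8% of all genes). NDUFB9, of the distal membrane arm, was the most abundant complex I member per length, with 372 ± 37 FPKM in C and 626 ± 110 in D (SD, n = 3). Its normalized CPM was 252, 265 and 216 in C and 450, 367 and 556 in D, a log2 fold change of 0.91 ± 0.16 (adjusted p = 0.00165, edgeR). All D libraries exceeded all C libraries by a clear margin. NDUFC2, of the proximal membrane arm, had the largest change of any member but a low level, with 5.48, 6.19 and 4.79 normalized CPM in C and 11.1, 9.37 and 15.2 in D (1.11 ± 0.20, adjusted p = 0.0018, edgeR). NDUFC2 is known to share exons with a read-through transcript, so its count may not hold all reads of the gene.

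NDUFA11, also of the proximal arm, had 93.2, 95.2 and 87 normalized CPM in C and 142, 116 and 194 in D (0.71 ± 0.18, adjusted p = 0.00837, edgeR). NDUFA9, which lies at the junction of the arms near the ubiquinone site, had 91.5, 97.6 and 86.9 in C and 129, 114 and 157 in D (0.53 ± 0.13, adjusted p = 0.00856, edgeR). NDUFA9 is a long gene of 8356 bp, and its value was 0.79 with length trends removed, while the short gene NDUFB9 (691 bp) moved to 0.62. The groups of both genes did not overlap. NDUFA13, also known as an inducer of cell death, NDUFAB1, which doubles as the mitochondrial acyl carrier protein, and NDUFB2 had log2 fold changes of 0.59, 0.60 and 0.59.

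The calls of these last 3 genes were each lost when any of several libraries was left out, with values between 0.50 and 0.64. When C replicate 1 was left out, NDUFA13 (0.62), NDUFAB1 (0.57) and NDUFB2 (0.64) were not called, and the same held without C replicate 3 (0.50, 0.56 and 0.52). Without D replicate 1, NDUFAB1 (0.63) and NDUFB2 (0.63) were not called, nor was NDUFB2 without C replicate 2 (0.60). With length trends removed, the values of all 3 were smaller, at 0.24 for NDUFA13, 0.31 for NDUFAB1 and 0.21 for NDUFB2, and all 3 were called.

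By position in the enzyme, 3 of 12 genes of the distal membrane arm, 3 of 9 of the proximal arm, 2 of 6 around the ubiquinone site and 0 of 10 of the NADH-oxidizing part were higher, where 26.8% of all genes were. The uncalled subunits with the largest values were NDUFS6, at 0.46 ± 0.19, and NDUFB5, at 0.40 ± 0.19. NDUFA7 and NDUFA3, named after their values were seen, lay at the other end, at −0.38 ± 0.19 and −0.33 ± 0.18. NDUFA7 had 45.6, 46.3 and 39.2 normalized CPM in C and 33, 24.4 and 43.2 in D, with D replicate 3 alone inside the range of C. Both were called lower when D replicate 3 was left out and when length trends were removed, and in the latter NDUFA7 stood at −0.72 and NDUFA3 at −0.51.

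The NDUFAF genes encode factors that help build complex I and leave it afterwards. Of 8, 2 were higher and 0 lower (edgeR; 2 and 0 at an unadjusted p under 0.05 and in DESeq2), a share of 25% against 26.8% of all genes, with a median of 0.28. NDUFAF6 had 14, 16.3 and 13.1 normalized CPM in C and 22.3, 22.8 and 29 in D (0.77 ± 0.15, adjusted p = 0.00246, edgeR). NDUFAF4 had 15.2, 17.5 and 14.5 in C and 24.5, 20.6 and 36.8 in D (0.79 ± 0.21, adjusted p = 0.0117, edgeR). For both genes all D libraries lay above all C libraries, and NDUFAF4 was not called without C replicate 1 (0.77). The most abundant of the family per length, NDUFAF3, had a value of −0.24 ± 0.16, and the uncalled genes NDUFAF8 and NDUFAF2 had 0.45 and 0.36. NDUFAF3 was called lower with length trends removed and in limma on log2(FPKM + 1) and log2(FPKM + 0.1) with the filter. Without D replicate 2, 5 of the 8 were higher (30.4% of all genes), and without C replicate 1, 1 was (20.4%). With length trends removed, 2 were higher and 1 lower (32.9% and 30.4%).

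Complex III, the cytochrome bc1 complex, had 9 listed genes, and 0 were called in either direction (edgeR), where 26.8% of all genes were higher and 27.7% lower. At an unadjusted p under 0.05, 3 were higher and 1 lower (29.4% and 30.4% of all genes). DESeq2 called 3 higher and 0 lower (28.4% and 26.8%). The median log2 fold change of the 9 genes was 0.20. UQCRH, the hinge protein near the cytochrome c1 site and the most abundant member per length, had 174, 187 and 154 normalized CPM in C and 218, 183 and 288 in D (0.42 ± 0.17, adjusted p = 0.0594, edgeR). The D libraries reached below the highest C library. UQCRQ, a small subunit close to cytochrome b, had 58.5, 58.9 and 46.8 in C and 70.9, 60.4 and 94.7 in D, so that its groups just separated, and its value of 0.46 ± 0.18 did not pass (adjusted p = 0.0522, edgeR). UQCRHL, a retrocopy whose sequence closely follows UQCRH, had 109 to 185 counts per library and a value of 0.47, and reads may have been shared between the pair.

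The catalytic member of this family, UQCRFS1, and a small subunit, UQCR10, had values of the opposite sign. UQCR10, chosen after its values were seen, had a log2 fold change of −0.28 ± 0.20 with overlapping groups. It was not called (adjusted p = 0.263, edgeR). Its value was −0.52 when D replicate 3 was left out and −0.54 after removal of length trends. In both of these fits UQCR10 was called lower. UQCRFS1, the Rieske iron-sulfur protein, named after its values were seen, had 97.5, 99.2 and 85.3 normalized CPM in C and 70.8, 61.5 and 90.1 in D (−0.34 ± 0.15, adjusted p = 0.0816, edgeR). D replicate 3 alone reached the range of C, and UQCRFS1 was called lower in the fit without it. UQCRFS1 was also called lower with library size only, with length trends removed and in the 3 limma fits on FPKM. The large core proteins UQCRC1 and UQCRC2 had values of 0.20 and 0.10. In edgeR, 5 complex III genes were higher when D replicate 2 was left out (30.4% of all genes). When D replicate 3 was left out, 0 were higher and 2 lower (30.1% and 29.9%). With length trends removed, 1 was higher and 2 lower (32.9% and 30.4%).

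The partners of complex III outside the name rule were cytochrome c1, a subunit of the complex, and cytochrome c, its electron acceptor. CYC1 had 260, 258 and 252 normalized CPM in C and 281, 229 and 309 in D (0.09 ± 0.12) and was not called. CYCS, the gene of cytochrome c, had 160, 176 and 152 in C and 201, 194 and 286 in D (0.48 ± 0.16, adjusted p = 0.03, edgeR), with groups that did not overlap. CYCS was not called without C replicate 1 (0.46), C replicate 2 (0.54) or C replicate 3 (0.43), with library size only (0.32) or in the 3 limma fits on FPKM (0.30 to 0.31).

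Complex IV, the cytochrome c oxidase, had the highest median of the complexes, 0.44 over 12 tested genes, and 11 of the 12 had values above 0. Of these, 4 were higher and 0 lower (edgeR; 7 and 0 at an unadjusted p under 0.05, and 7 and 0 in DESeq2), a share of 33.3% against 26.8% of all genes. Leaving out D replicate 2 gave 11 higher (30.4% of all genes), and leaving out D replicate 3 gave 2 higher and 1 lower (30.1% and 29.9%). Leaving out any other library gave 2 higher (20.4% to 22.5%). The median was 0.14 with length trends removed, and 4 were higher (32.9%).

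COX7A2L, which is known for joining complexes III and IV into supercomplexes, had 122, 117 and 95.8 normalized CPM in C and 195, 165 and 251 in D (0.87 ± 0.17, adjusted p = 0.00255, edgeR). NDUFA4, named as a complex I subunit but known to belong to complex IV, had 91.3, 95.1 and 70.1 in C and 143, 121 and 187 in D (0.81 ± 0.18, adjusted p = 0.00505, edgeR). Both genes had all D libraries above all C libraries, and with length trends removed they stood at 0.81 and 0.71. COX4I1, the largest nuclear subunit and a site of regulation by ATP, had 348, 359 and 303 in C and 439, 366 and 576 in D (0.45 ± 0.17, adjusted p = 0.0463, edgeR). COX6A1 had 161, 158 and 145 in C and 208, 163 and 289 in D (0.51 ± 0.19, adjusted p = 0.049, edgeR). In both, D replicate 2 lay barely above the highest C library.

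The calls of COX4I1 and COX6A1 were the closest to the threshold, and they were lost when any library other than D replicate 2 was left out. COX4I1 stood at 0.47, 0.50 and 0.38 without C replicates 1, 2 and 3, at 0.49 without D replicate 1 and at 0.27 without D replicate 3. COX6A1 stood at 0.53, 0.52 and 0.46 without C replicates 1, 2 and 3, at 0.55 without D replicate 1 and at 0.27 without D replicate 3. With length trends removed COX6A1 stood at 0.15 and was not called, the single member called higher that lost its call in that fit. COX7A2 (0.51 ± 0.20) and COX5B (0.50 ± 0.20) had values of the same size and were not called. COX8A, the most abundant complex IV gene per length, had 451 ± 41.6 FPKM in C and 474 ± 101 in D (SD, n = 3) and a log2 fold change of 0.23 ± 0.17. COX7B, named after its value was seen, was the single tested member of complex IV below 0, at −0.11 ± 0.21, with 271 and 228 normalized CPM in D replicates 1 and 2 and 421 in D replicate 3.

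Several complex IV subunits have isoforms whose use is restricted to certain tissues or conditions, and these were at or near 0 in all libraries. COX4I2, known from lung and low oxygen, had at most 1 count in any library, where COX4I1 had 6388 to 10139. COX7B2 had at most 1 count and COX8C, known from testis, at most 2. COX6B2, also known from testis, had 15, 9 and 10 counts in C and 0, 1 and 1 in D, against 3379 to 5371 counts of COX6B1. NDUFA4L2, known as a gene induced by hypoxia, had 2, 1 and 1 counts in C and 4, 5 and 5 in D, against 1479 to 3288 of NDUFA4. ATP5MGL, a paralog of the complex V gene ATP5MG, had 1 count in every library. These 6 genes were the members left out of the test, and the general isoforms made up the measured complex.

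Complex V, the ATP synthase, had 18 tested genes, of which 1 was higher and 0 lower (edgeR; 2 higher and 1 lower at an unadjusted p under 0.05, and 2 and 0 in DESeq2), a share of 5.56% against 26.8% of all genes. Its median was 0.14 with TMM scaling and −0.12 with length trends removed, where 2 were higher and 6 lower (32.9% and 30.4% of all genes). The fit without D replicate 2 gave 7 higher (30.4%), and the fit without D replicate 3 gave 1 higher and 3 lower (30.1% and 29.9%). The fit without C replicate 3 gave 0 in each direction (21.4% and 22.3%).

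ATP5F1B, the catalytic beta subunit of the F1 head, was the most abundant member of all per length, with 807 ± 32.7 FPKM in C and 727 ± 72.7 in D (SD, n = 3). Its normalized CPM was 1348, 1407 and 1288 in C and 1393, 1167 and 1496 in D, with overlapping groups and a log2 fold change of 0.00 ± 0.12. ATP5F1A, the alpha subunit, named after its values were seen, had 468, 498 and 441 in C and 379, 325 and 422 in D. All its D libraries lay below all C libraries, and its log2 fold change of −0.32 ± 0.12 came close to the threshold (adjusted p = 0.0504, edgeR). ATP5F1A was called lower with library size only (−0.48), without D replicate 3, without a filter on low counts and in the FPKM fits, and its value was −0.15 and not called with length trends removed. The FPKM of ATP5F1A was 9.42% to 9.73% of that of ATP5F1B in C and 7.48% to 7.75% in D. Alpha and beta subunits occur in equal number in the enzyme, but the lengths used for FPKM were 6401 bp for ATP5F1A and 1759 bp for ATP5F1B, so the alpha count was divided by a longer length.

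ATP5F1D, the delta subunit of the central stalk, was the called gene of complex V. It had 19.9, 20.2 and 17 normalized CPM in C and 29.2, 23.8 and 38.6 in D (0.68 ± 0.18, adjusted p = 0.0119, edgeR), with no overlap. It was not called without C replicate 3 (0.60). The gamma subunit gene ATP5F1C had a value of 0.00, and ATP5IF1, the inhibitor that blocks reverse ATP breakdown, also had 0.00. The supernumerary membrane subunits ATP5MG and ATP5MJ had the largest uncalled values, 0.48 ± 0.19 and 0.39 ± 0.20. All 4 genes of the peripheral stalk, which holds the head still, lay between 0.03 and 0.24.

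The c ring, the rotor that protons drive, is built from a single mature protein encoded by 3 genes that differ in their import signals. ATP5MC1 held 69.3%, 70.8% and 70.5% of their summed FPKM in C and 65.9%, 66.2% and 67.9% in D. ATP5MC2 held 20.7%, 19.6% and 20% in C and 25%, 24.7% and 24.3% in D. ATP5MC3 held 10.1%, 9.67% and 9.54% in C and 9.17%, 9.11% and 7.8% in D. The shares of the groups did not overlap for any of the 3 genes, and shares of the same sum are not independent. In normalized CPM, 30.6% of all genes tested had D above C without overlap and 32.1% D below C. The lengths were 576, 2578 and 2776 bp for ATP5MC1, ATP5MC2 and ATP5MC3, and length trends were not removed from the shares. As single genes, ATP5MC1 (−0.06), ATP5MC2 (0.31) and ATP5MC3 (−0.17) were not called in the main fit. ATP5MC1 was called lower with length trends removed (−0.40) and without D replicate 3 (−0.28). ATP5MC3 was called lower without D replicate 3 (−0.28) and in limma on log2(FPKM + 1) and log2(FPKM + 0.1) with the filter. ATP5MC2 was called higher without D replicate 2 (0.49).

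Per length, the members together made up 2.14% to 2.36% of the summed FPKM of all genes in C and 1.90% to 2.30% in D. This share is a level within each library and does not depend on the scaling between libraries, but it depends on the summed FPKM of all genes, its divisor. Complex V made up 0.659% ± 0.026 in C and 0.538% ± 0.042 in D (SD, n = 3), and complex II 0.108% ± 0.0025 in C and 0.0843% ± 0.0028 in D. For both complexes the shares of all D libraries lay below those of all C libraries. The same held for the complex I assembly factors, at 0.0314% ± 0.0020 in C and 0.0264% ± 0.0024 in D. The summed FPKM of complexes II and V, before this division, overlapped between the groups. It was 2462 ± 175 in C and 2361 ± 418 in D for complex V (SD, n = 3). For complex II it was 403 ± 22.2 in C and 369 ± 49.3 in D. Complex I, at 0.649% ± 0.040 and 0.642% ± 0.066, and complex IV, at 0.618% ± 0.038 and 0.613% ± 0.076, overlapped between the groups, and complex III had 0.210% ± 0.0097 and 0.185% ± 0.015. These shares are sums over genes that respond to length as described above, and the length trend of the libraries was not removed from them.

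Of 43 assembly factor genes of the complexes outside the name rule, 42 were tested, and 14 (33.3%) were higher and 5 (11.9%) lower, beside 26.8% and 27.7% of all genes. The median was 0.10. COX19, a small protein of the intermembrane space needed for complex IV, had 10.7, 11.3 and 9.1 normalized CPM in C and 41.3, 38.5 and 42.5 in D (1.98 ± 0.13, adjusted p = 1.45e-05, edgeR). COA7, a factor needed for complex IV, had 20.5, 23 and 25.7 in C and 64.1, 65.3 and 54.4 in D (1.41 ± 0.13, adjusted p = 6.59e-05, edgeR). COX18, which helps insert a mitochondrially encoded subunit of complex IV into the membrane, fell from 16.6, 16.2 and 15.4 to 7.73, 7.86 and 8.69 (−0.99 ± 0.12, adjusted p = 0.000193, edgeR). In these 3 genes the libraries of a group lay close together and the groups were far apart. When D replicate 3 was left out, 14 of the assembly factor genes were higher and 8 lower, where 30.1% and 29.9% of all genes were.

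**Figure D5:**
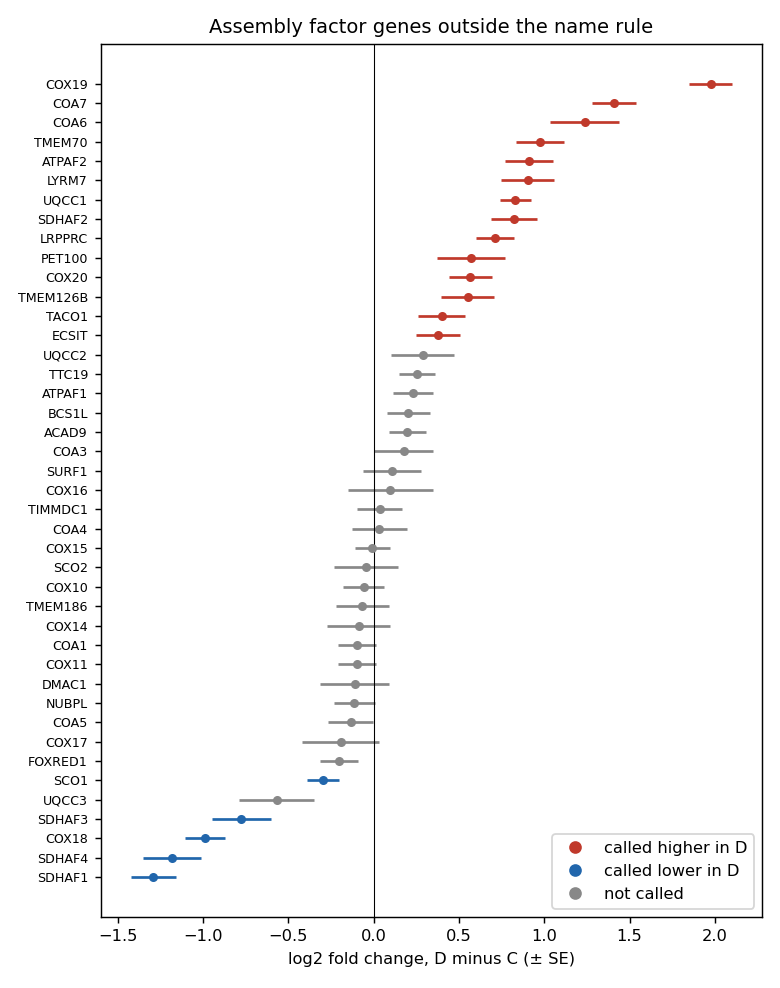
Log2 fold change of D minus C with its standard error (horizontal axis) for the 42 tested assembly factor genes outside the name rule, ordered by value; red is called higher, blue called lower, grey not called. COX19 at 1.98 is highest and SDHAF1 at −1.29 lowest, a wider range than that of the subunits.

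Genes that feed the respiratory chain or keep up mitochondrial DNA went both ways. Of 13 tricarboxylic acid cycle genes, 4 (30.8%) were higher and 1 (7.69%) lower, beside 26.8% and 27.7% of all genes. With library size only 2 were higher and 3 lower, where all genes had 20.4% and 35.1%. There were 7 higher without D replicate 2, 3 higher and 2 lower without D replicate 3, and 2 higher without any other library. IDH3B, a subunit of isocitrate dehydrogenase, had 104, 113 and 103 normalized CPM in C and 155, 130 and 180 in D (0.54 ± 0.13, adjusted p = 0.00768, edgeR). SUCLA2, a subunit of the succinyl-CoA ligase, which works just before succinate dehydrogenase, fell from 23.4, 27.3 and 27.6 to 16.4, 18.1 and 21.2 (−0.49 ± 0.14, adjusted p = 0.0143, edgeR), and was not called without C replicate 2 (−0.46), C replicate 3 (−0.45) or D replicate 1 (−0.41).

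Of 15 genes of mitochondrial biogenesis and mitochondrial DNA expression, 6 (40%) were higher and 2 (13.3%) lower, beside 26.8% and 27.7% of all genes. TFAM, which packages mitochondrial DNA and starts its transcription, had 23.9, 28.9 and 27.1 normalized CPM in C and 50, 57.2 and 60.4 in D (1.07 ± 0.12, adjusted p = 0.000189, edgeR). TWNK, the helicase of mitochondrial DNA, rose from 19.5, 19.7 and 20.9 to 31, 32.5 and 34.7 (0.71 ± 0.11, adjusted p = 0.000765, edgeR). POLG, the polymerase of mitochondrial DNA, fell from 123, 118 and 119 to 63, 55 and 47.4 (−1.12 ± 0.12, adjusted p = 0.000135, edgeR), and TFB1M, a ribosomal RNA methyltransferase, had −0.74 ± 0.15. All 4 of these genes had groups that did not overlap, as did 30.6% of all genes with D above C and 32.1% with D below C.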

How the data were processed

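RNA was column-purified and made into libraries with a SMARTER kit for mRNA, per the labels' protocols. The authors' deposited tables give, per gene symbol, raw counts and FPKM. Each deposited FPKM value equalled the count over the library total and over a fixed gene length for 17144 of 17144 genes (relative tolerance 0.001), and these lengths were used here. Aligner, counter and strandedness were not given in the sources used here. The organism is labelled mouse, with builds GRCm38 and mm10 in the submitters' processing notes, while the symbols are human, so no coordinates or sequences are given.

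Counts were tested with edgeR 4.0.16 in R 4.3.3: filterByExpr kept 12682 genes, TMM factors set the scaling, and group was the single term of the quasi-likelihood F test. Values per library are normalized CPM, and the standard error is the log2 fold change divided by the square root of F. Log2 CPM used a prior count of 2. Alternatives were DESeq2 1.42.0, other scalings and filters, the replicate block, each library left out, a lowess length trend removed from each library (span 0.4), an adjusted p under 0.01, and limma 3.58.1 on log2(FPKM + 1) or log2(FPKM + 0.1). The fits were tried on simulated counts.

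Members, lists and tests were chosen with earlier results of these data known. Members were named when called, when they were SDH genes, when they had the highest FPKM of a complex or the 2 largest uncalled values in it, or when they were paralogs. Up to 2 called genes per direction with the lowest p were named from each other list. Members named outside this rule, including those named to complete a described part of a complex, were chosen after their values were seen. A few genes that enter the counts are not reported here by name.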

Additional observations from a re-analysis of the deposited data

How the results depend on the processing

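Of 1408 comparisons of a single member with an alternative fit, 1252 kept the direction and the side of the threshold or were uncalled in both fits, 53 lost a call, 97 gained a call and 6 changed sign with a call. The count of members higher in D, 15, was 23 in DESeq2, 9 in limma on log2(FPKM + 1) without a filter and 7 at an adjusted p under 0.01, and it ran from 8 to 49 as single libraries were left out. The count lower, 1, was 5 with library size only, 3 without a filter on low counts, 17 with length trends removed, 8 in limma on log2(FPKM + 1) and on log2(FPKM + 0.1), and 6 on log2(FPKM + 1) without a filter, and it ran from 1 to 12 as single libraries were left out. The cause of these shifts was not tested. The median of every complex moved by less than the spread between the D libraries, but those of complexes II and V changed sign with length trends removed (−0.06 and −0.12) with library size only (−0.02 and −0.01) and in the 3 limma fits on FPKM (−0.02 and −0.03 on log2(FPKM + 1)), and that of complex V also without D replicate 3 (−0.06). Without D replicate 3 the median of complex I was 0.08 and that of complex III 0.06. With length trends removed, ATP5F1C (−0.21), ATP5IF1 (−0.32), ATP5ME (−0.21), ATP5MF (−0.34), ATP5PO (−0.26) and NDUFB1 (−0.43) changed sign and were called lower. The replicate numbers of the titles are not said to pair libraries. The deviations of same-numbered libraries correlated at 0.01, −0.40 and −0.36 across genes. These deviations also hold the length trend of each library, so they cannot show whether the libraries were paired. With the replicate number as a block, 11 members were higher and 1 lower (21.2% and 23.5% of all genes), CYCS (0.46) was not called, and a call lost there is no measure of effect size. Members at low counts, such as COX6B2, are limited by depth, and no label gives separate cultures.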
